A study of Rattus norvegicus with 12 samples.

Results

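The genes described here are 37 genes of DNA replication and S phase chosen by name for their known roles. All 37 were found by symbol in each of 12 RNA-seq libraries of rat dorsal root ganglion, of 20152 genes listed in at least 1 library, and all 37 passed the filter on low counts. The dorsal root ganglion is a swelling of the sensory nerve root that holds the cell bodies of sensory neurons, with the glia, vessels and connective tissue around them. There were 3 groups of 4 libraries, from rats given vehicle, paclitaxel at 2.0 mg/kg or oxaliplatin at 2.4 mg/kg. Both drugs are used against cancer and were given into the peritoneal cavity to induce neuropathic pain. Paclitaxel stabilises microtubules and was taken up in DMSO and then saline, while oxaliplatin is a platinum compound that forms adducts on DNA and was given in glucose solution. The vehicle was a single group, so a solvent and its drug cannot be told apart. The labels give no strain, sex, age or sampling time and do not say that replicates came from separate animals, so the spread behind each p-value is that between libraries and may be technical.

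Replication begins when the origin recognition complex, with Cdc6 and Cdt1, loads the Mcm2 to Mcm7 helicase onto DNA, which is called licensing. At the G1/S boundary cyclin E and its kinase act with E2F transcription factors, and Cdc45 and the GINS complex then join the helicase and open the origin. DNA is primed and extended by DNA polymerases held on the ring-shaped clamp PCNA, deoxynucleotides are supplied by ribonucleotide reductase, thymidylate synthase and thymidine kinase, and histones and DNA methylation are copied behind the fork. Mature sensory neurons do not divide, and dividing cells of an adult ganglion are found among its other cells. In RNA of a whole tissue, more cells of a type and more RNA per cell cannot be told apart.

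Libraries held between 17008728 and 17615736 estimated counts and between 17987 and 18215 listed genes. Of 8 markers of neurons each was detected in all libraries, with summed levels of 8900 to 15700 CPM (counts scaled to a common library size and composition), as the tissue label says. Differences are given as log2 fold changes ± standard error. A gene is called at an adjusted p under 0.05 in the quasi-likelihood test of edgeR, adjusted by Benjamini and Hochberg's method over the 15809 genes tested. The median log2 fold change over all genes tested was 0.009 for oxaliplatin against vehicle, -0.012 for paclitaxel against vehicle and 0.004 for oxaliplatin against paclitaxel.

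The promoters of 4 members are printed because many genes of this group share binding sites of E2F factors near their starts. The first 3 belong to helicase subunit genes that were called higher after oxaliplatin, and the last to the clamp gene Pcna, whose level stayed near that of vehicle. Each is 300 bases, 250 before and 50 after the start of the gene, on the strand of the gene, from RefSeq on build GRCr8. The Mcm3 window is chr9:30733697-30733996 on the minus strand, that of Mcm5 chr19:13488563-13488862 on the plus strand, that of Mcm6 chr13:42404303-42404602 on the minus strand and that of Pcna chr3:139955771-139956070 on the minus strand. Capitals mark matches to any of 4 words of the E2F site, TTTCCCGC, TTTCGCGC, TTTGCCGC and TTTGGCGC, on either strand.
Mcm3: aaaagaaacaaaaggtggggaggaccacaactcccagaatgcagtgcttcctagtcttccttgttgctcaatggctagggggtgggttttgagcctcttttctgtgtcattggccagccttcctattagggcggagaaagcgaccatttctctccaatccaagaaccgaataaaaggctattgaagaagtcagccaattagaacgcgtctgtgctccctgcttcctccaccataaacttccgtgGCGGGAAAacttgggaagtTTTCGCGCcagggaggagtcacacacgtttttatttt
Mcm5: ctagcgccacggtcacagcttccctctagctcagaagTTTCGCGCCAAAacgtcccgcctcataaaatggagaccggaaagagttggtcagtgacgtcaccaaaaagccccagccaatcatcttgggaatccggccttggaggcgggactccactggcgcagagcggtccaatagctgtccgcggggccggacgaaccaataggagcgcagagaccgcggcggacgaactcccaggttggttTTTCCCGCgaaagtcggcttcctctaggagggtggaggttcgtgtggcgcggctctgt
Mcm6: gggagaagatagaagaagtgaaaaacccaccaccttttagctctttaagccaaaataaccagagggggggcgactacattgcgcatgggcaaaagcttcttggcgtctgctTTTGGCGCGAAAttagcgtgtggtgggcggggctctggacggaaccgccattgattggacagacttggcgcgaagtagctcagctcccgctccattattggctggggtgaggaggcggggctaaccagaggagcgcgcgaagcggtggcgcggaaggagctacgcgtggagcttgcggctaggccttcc
Pcna: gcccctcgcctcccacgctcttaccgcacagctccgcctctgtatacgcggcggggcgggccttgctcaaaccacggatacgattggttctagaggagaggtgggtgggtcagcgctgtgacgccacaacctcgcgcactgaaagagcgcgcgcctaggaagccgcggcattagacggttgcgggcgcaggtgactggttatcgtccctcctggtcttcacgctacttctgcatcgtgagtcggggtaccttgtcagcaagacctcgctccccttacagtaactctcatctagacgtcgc

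In Mcm3 the matches began 6 bases before the start, on the opposite strand, and 13 bases after it. Mcm5 had a match beginning 8 bases before the start, and farther out a pair that overlap on opposite strands, beginning 213 and 209 bases before it. The pair in Mcm6, 139 and 135 bases before the start, overlap in the same way. The Pcna window held no match, which says only that these letters are absent from it. Of the 37 members 30 had an entry in the promoter table, and Orc1, Cdc6, Mcm4, Rrm2, Ccne2, E2f1 and E2f8 had none. An E2F word was found in 13 of the 30 (43.3%), compared with 2.3% of all 27457 promoters in the table and 3.3% of the 14972 promoters of genes listed in these libraries. Among members called higher after oxaliplatin, 3 of 7 held a match, which are the 3 printed here, and Mcm10, Pold1, Tk1 and Uhrf1 held none. Among the others 10 of 23 did, Gins1 and Rfc3 being examples. The printed windows thus do not stand for all called members. Members were also richer in G and C, with a median of 60% against 58.3% for promoters of listed genes. CCAAT, read on both strands, was in 19 of 30 members (63.3%), 37.7% of all promoters and 37.7% of those of listed genes. TATAAA was in 0 members, 14.3% of all promoters and 9.6% of those of listed genes. A match is a description of letters, and no binding was measured.

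After oxaliplatin 8 of the 37 replication genes rose against vehicle and 29 did not pass the test. Those that rose were Mcm5, Mcm6 and Mcm3 of the helicase, Mcm10 of origin opening, and the deoxynucleotide genes Rrm2 and Tk1. The others were the polymerase subunit gene Pold1 and Uhrf1, which guides the copying of DNA methylation. None was called lower. Over all genes tested 1.05% were called higher and 0.708% lower. The log2 fold change was above 0 in 35 members, below 0 in 1 (Rfc2) and 0.00 in Pcna, where 51.7% of all genes were above 0, and the median over members was 0.38, with a range of -0.01 to 1.41. The 4 oxaliplatin libraries all lay above the 4 vehicle libraries for 17 members, against 5.54% of all genes tested. An unadjusted p under 0.05 in edgeR was reached by 21 of the 37 members, and by 2726 of the 15809 genes tested.

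How many members passed depended on single libraries. In edgeR 2 remained called without vehicle 4 or oxaliplatin 1, namely Mcm5 and Uhrf1, and these stayed called whichever library was left out. Without vehicle 1 (with E2f8 gained) or vehicle 2 (with Rrm2) the test called 3 members, without vehicle 3, paclitaxel 3 or oxaliplatin 3 it called 4, and without paclitaxel 2, oxaliplatin 2 or oxaliplatin 4 it called 5. Calls over all genes fell as well, from 1.76% with all libraries to 0.307% without vehicle 4 and 0.578% without oxaliplatin 1. The shares were 0.615% without vehicle 1 and 0.527% without vehicle 2. Without vehicle 3, paclitaxel 3 and oxaliplatin 3 they were 1.52%, 0.909% and 0.659%. Without paclitaxel 2, oxaliplatin 2 and oxaliplatin 4 they were 0.864%, 0.972% and 1.05%. An unadjusted p under 0.05 in edgeR was reached by 17 members without vehicle 4 and by 19 without oxaliplatin 1. The matching count over all genes was not taken for these refits. The median log2 fold change over members stayed between 0.34 and 0.40 with a library left out. DESeq2 called 12, the same 8 with Mcm7, Pole, Dnmt1 and E2f8, and it called 5.73% of all genes.

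**Figure D1:**
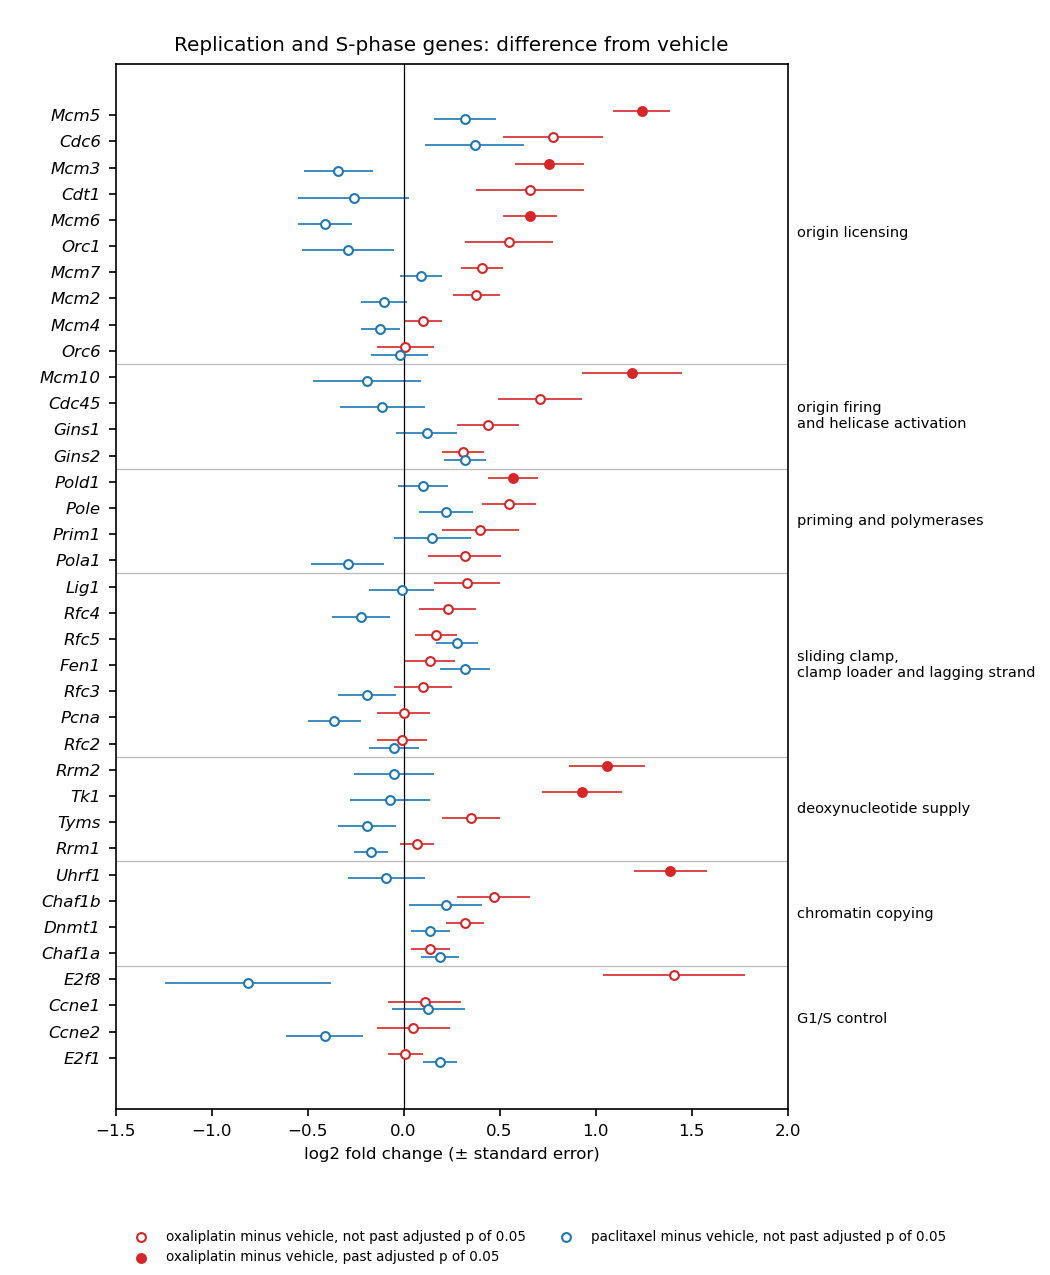
Log2 fold change against vehicle (horizontal axis, ± standard error) of each of the 37 genes (vertical axis, grouped by role) for oxaliplatin (red) and paclitaxel (blue), from edgeR, with filled points called at an adjusted p under 0.05. The 8 filled points are all for oxaliplatin, and the clamp and clamp loader genes lie between -0.01 and 0.33 for that drug.

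Among the 10 licensing genes, all 10 log2 fold changes for oxaliplatin were above 0 and 3 were called (median 0.60). Mcm5 (gene ID 291885), a subunit at the gate through which the helicase ring opens, stood at 3.12, 3.33, 4.52 and 3.96 CPM in vehicle 1 to 4, at 4.29, 4.40, 5.03 and 4.88 in paclitaxel 1 to 4, and at 9.47, 8.79, 7.29 and 9.83 in oxaliplatin 1 to 4. Every oxaliplatin library was above every other library. The mean went from 3.73 ± 0.634 to 8.84 ± 1.12 CPM (SD, n = 4 libraries), a log2 fold change of 1.24 ± 0.15 (adjusted p = 0.0014, edgeR). Mcm6 (29685) held 5.37, 5.32, 4.58 and 4.94 CPM in the vehicle libraries, 3.39, 3.46, 4.20 and 4.18 after paclitaxel, and 9.18, 7.70, 7.57 and 7.42 after oxaliplatin. For this subunit the 3 groups did not overlap, with paclitaxel lowest and oxaliplatin highest. It rose after oxaliplatin by 0.66 ± 0.14 (adjusted p = 0.0319, edgeR) and lost the call without any of vehicle 1 to 4 or oxaliplatin 1 to 3 (adjusted p of 0.0551 to 0.101). Mcm3 (316273), another ring subunit, had 4.68, 4.33, 5.26 and 3.16 CPM after vehicle, 3.39, 3.75, 3.85 and 2.73 after paclitaxel, and 8.31, 6.95, 8.08 and 6.18 after oxaliplatin. It rose by 0.76 ± 0.18 with an adjusted p at the threshold (0.049, edgeR), and of 12 refits with a library left out it kept the call in 2, without vehicle 3 or paclitaxel 4.

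The other 3 ring subunits were not called. Mcm7 (288532) stood at 14.8, 15.6, 13.6 and 15.4 CPM after vehicle, 15.5, 16.5, 14.8 and 16.6 after paclitaxel, and 23.2, 19.9, 19.5 and 16.1 after oxaliplatin. Its oxaliplatin libraries were above all vehicle libraries but overlapped those of paclitaxel, and the difference of 0.41 ± 0.11 missed the threshold (adjusted p = 0.0784, edgeR). Mcm2 (312538), whose long tail also binds histones, had 12.6, 11.4, 11.5 and 9.18 CPM after vehicle, 9.37, 11.7, 11.4 and 9.18 after paclitaxel, and 16.3, 13.8, 13.6 and 14.4 after oxaliplatin. For Mcm2 no oxaliplatin library fell among the others, with a difference from vehicle of 0.38 ± 0.12 (adjusted p = 0.13, edgeR). Mcm4 lay between 15.0 and 18.8 CPM after vehicle and between 17.5 and 19.4 after oxaliplatin (0.10 ± 0.10, 95% interval -0.11 to 0.31).

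Per length of transcript, the 6 ring subunits were unequal, although the ring holds 1 of each. In FPKM (fragments scaled by transcript length and library size), Mcm7 was the highest of the 6 in all 12 libraries, with 6.18 ± 0.412 after vehicle, while Mcm5 had 1.30 ± 0.209 and Mcm3 1.48 ± 0.310. The ratio of the highest to the lowest subunit was 5.48, 5.71, 3.58 and 5.95 in vehicle 1 to 4, 5.61, 5.84, 4.67 and 7.41 after paclitaxel, and 3.46, 3.49, 3.27 and 3.18 after oxaliplatin. It lay below all other libraries in the 4 oxaliplatin libraries, by little in the case of vehicle 3. This ratio was picked after the values had been seen, so no test is given.

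The loaders of the helicase varied more between libraries. Orc1 (313479), the largest subunit of the origin recognition complex, had 2.60, 2.51, 1.72 and 1.78 CPM after vehicle, 1.39, 2.35, 1.60 and 1.68 after paclitaxel, and 3.41, 3.22, 3.67 and 2.30 after oxaliplatin. Oxaliplatin 4 fell inside the vehicle range, and the difference was 0.55 ± 0.23 (adjusted p = 0.239, edgeR). Cdc6 lay between 0.918 and 1.96 CPM after vehicle and between 1.91 and 2.89 after oxaliplatin (0.78 ± 0.26, adjusted p = 0.142). Cdt1, which is blocked by geminin once S phase has begun, ranged from 1.61 to 3.15 and from 3.11 to 5.22 CPM (0.66 ± 0.28, adjusted p = 0.243). Orc6 stayed between 5.11 and 6.66 CPM in the 8 libraries of both groups (0.01 ± 0.15, interval -0.30 to 0.32). Orc1 and Cdc6 are uncertain, because their estimated counts were fractional in all 12 libraries, a sign of reads divided among genes (called shared reads here).

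Of the 4 genes that turn a loaded helicase into a moving fork, all 4 were above 0 and 1 was called. Mcm10 (307126), which binds the helicase as the origin opens, was among the scarcest members, with 1.10, 0.877, 0.858 and 0.746 CPM after vehicle, 1.15, 0.587, 0.888 and 0.523 after paclitaxel, and 2.02, 2.24, 1.81 and 2.13 after oxaliplatin. The oxaliplatin libraries stood clear of the other 8, with a mean of 36.0 estimated counts behind the value against 15.5 after vehicle. It rose by 1.19 ± 0.26 (adjusted p = 0.0363, edgeR), a call kept in 2 of the 12 refits, without paclitaxel 1 or 4 (otherwise an adjusted p of 0.0529 to 0.133). Cdc45 (287961), the rod that ties helicase and GINS together, had 1.68, 1.46, 1.83 and 1.09 CPM after vehicle, 1.75, 1.35, 1.18 and 1.34 after paclitaxel, and 2.71, 2.13, 2.26 and 2.81 after oxaliplatin. Its oxaliplatin libraries did not overlap the others either, and the difference from vehicle was 0.71 ± 0.22 (adjusted p = 0.115). The GINS subunit genes Gins1 (0.44 ± 0.16, adjusted p = 0.188) and Gins2 (0.31 ± 0.11, adjusted p = 0.174, reads shared) did not pass. Gins2 was as high after paclitaxel, where it lay between 9.94 and 12.4 CPM, as after oxaliplatin, where it lay between 10.9 and 11.9, with vehicle between 7.67 and 10.0.

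**Figure D2:**
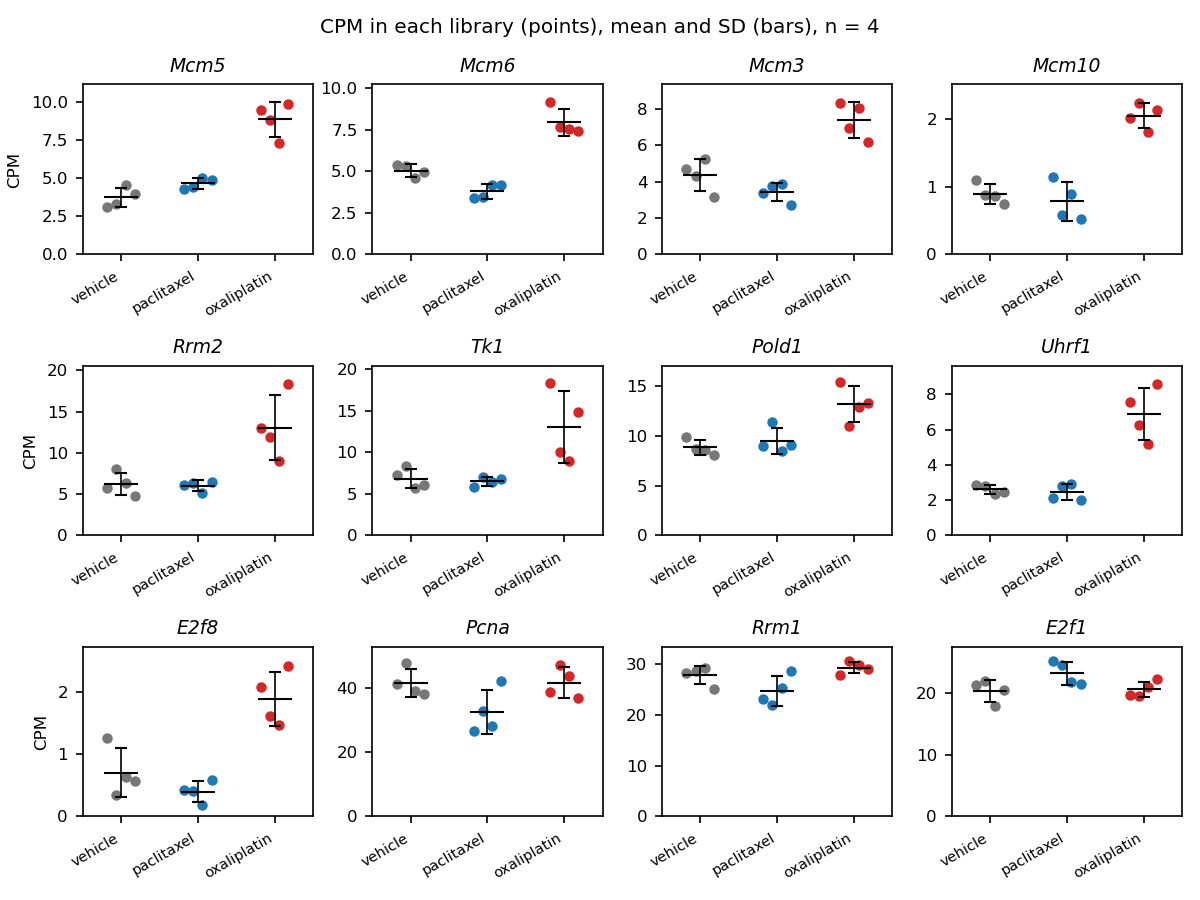
CPM (vertical axes, starting at 0) of 12 genes in each of 4 vehicle (grey), 4 paclitaxel (blue) and 4 oxaliplatin (red) libraries, with the mean and SD as bars. Mcm5 reaches 7.29 to 9.83 CPM after oxaliplatin and at most 5.03 elsewhere, while the groups of Pcna, Rrm1 and E2f1 overlap.

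Genes of priming and of the polymerases gave 4 of 4 values above 0, with 1 called. Pold1 (59294), the catalytic subunit of the lagging-strand polymerase delta, had 9.88, 8.71, 8.58 and 8.09 CPM after vehicle, 9.01, 11.4, 8.46 and 9.06 after paclitaxel, and 15.4, 11.0, 12.9 and 13.3 after oxaliplatin. It rose by 0.57 ± 0.13 (adjusted p = 0.0413, edgeR), although paclitaxel 2 reached the level of oxaliplatin 2. Without any of vehicle 1 to 4, paclitaxel 3 or oxaliplatin 1, 3 or 4 it missed the threshold (adjusted p of 0.0558 to 0.143). Pole (304573), its counterpart on the leading strand, had 4.85, 4.50, 4.58 and 5.11 CPM after vehicle, 5.56, 5.22, 5.68 and 5.69 after paclitaxel, and 6.01, 6.72, 6.33 and 8.93 after oxaliplatin. The 3 groups did not overlap for Pole, with paclitaxel in the middle, and the difference between oxaliplatin and vehicle was 0.55 ± 0.14 (adjusted p = 0.0704). Pola1, which extends the primer, had 0.32 ± 0.19 (adjusted p = 0.408), with vehicle between 4.74 and 5.20 CPM and oxaliplatin between 5.77 and 6.66. Prim1, which makes the primer, had 0.40 ± 0.20 (adjusted p = 0.309), with ranges of 19.8 to 34.7 and 29.6 to 41.7 CPM and shared reads.

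Of the 7 genes of the sliding clamp, its loader and the lagging strand, 0 were called and 0 were free of overlap with vehicle, and the median log2 fold change was 0.14. Pcna (25737), the clamp and a common marker of S phase, was the most abundant member per length, with 36.4 ± 3.57 FPKM after vehicle. It stood at 41.3, 47.9, 39.0 and 38.2 CPM after vehicle, 26.7, 33.0, 28.3 and 42.1 after paclitaxel, and 38.7, 47.3, 43.8 and 36.9 after oxaliplatin. The difference between oxaliplatin and vehicle was 0.00 ± 0.14, with an interval of -0.29 to 0.29 that leaves out the change of Mcm5. Paclitaxel 1, 2 and 3 were below all vehicle libraries for Pcna and paclitaxel 4 was inside their range. The clamp loader genes Rfc2, Rfc3, Rfc4 and Rfc5 had -0.01, 0.10, 0.23 and 0.17 after oxaliplatin, and Fen1, the flap nuclease that trims Okazaki fragments, 0.14. Lig1 (81513), the ligase that seals them and the member of this role with the smallest p, had 21.4, 17.4, 20 and 14.5 CPM after vehicle, 22.2, 17.4, 17 and 16.3 after paclitaxel, and 15.6, 23.3, 26.2 and 26.8 after oxaliplatin. Its oxaliplatin libraries were split, oxaliplatin 1 near the bottom of the vehicle range and the other 3 above it (0.33 ± 0.17, adjusted p = 0.343, edgeR). Reads of Lig1 were shared in 8 libraries and those of Rfc5 in 12.

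Deoxynucleotide supply had 2 of 4 genes called. Rrm2 (362720), the subunit of ribonucleotide reductase made in S phase, had 5.78, 8.07, 6.35 and 4.82 CPM after vehicle, 6.17, 6.34, 5.09 and 6.51 after paclitaxel, and 13.0, 11.9, 9.04 and 18.4 after oxaliplatin. All 4 oxaliplatin libraries were above the rest, with oxaliplatin 4 highest. Rrm2 rose by 1.06 ± 0.20 (adjusted p = 0.0231, edgeR), and missed the threshold without vehicle 1, vehicle 4 or oxaliplatin 1 (adjusted p = 0.0652, 0.0939 and 0.0611). Tk1 (24834), the thymidine kinase of dividing cells, had 7.28, 8.30, 5.72 and 6.08 CPM after vehicle, 5.87, 7.04, 6.39 and 6.74 after paclitaxel, and 18.3, 10.1, 8.92 and 14.8 after oxaliplatin. The groups did not overlap, though oxaliplatin 3 was close to vehicle 2, and Tk1 rose by 0.93 ± 0.21 (adjusted p = 0.0385). Without any of vehicle 1 to 4, paclitaxel 2 or 3, or oxaliplatin 1 or 4 its call was lost (adjusted p of 0.0571 to 0.137). Tyms (29261), which makes thymidylate, had 5.32, 3.80, 5.44 and 4.88 CPM after vehicle, 3.51, 4.40, 4.26 and 4.88 after paclitaxel, and 5.89, 6.32, 6.33 and 6.18 after oxaliplatin. Its oxaliplatin libraries were close together and above the others, at 0.35 ± 0.15 from vehicle (adjusted p = 0.255).

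Rrm1 (685579), the large subunit that pairs with Rrm2, was nearly level, with 28.2, 28.6, 29.2 and 25.1 CPM after vehicle, 23.0, 21.9, 25.2 and 28.5 after paclitaxel, and 27.8, 30.5, 29.7 and 29.0 after oxaliplatin. Its difference between oxaliplatin and vehicle was 0.07 ± 0.09, with an interval of -0.12 to 0.27. Per length, Rrm1 exceeded Rrm2 by 4.11, 2.98, 3.87 and 4.39 times in the vehicle libraries, 3.14, 2.91, 4.16 and 3.69 times after paclitaxel, and 1.80, 2.16, 2.77 and 1.33 times after oxaliplatin. The FPKM of the 2 subunits were thus closest after oxaliplatin, a ratio chosen with the values known and given with no test.

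In the set that copies chromatin, 4 of 4 values were above 0 and 1 was called. Uhrf1 (316129), which reads DNA methylated on the old strand behind the fork, had 2.89, 2.81, 2.35 and 2.47 CPM after vehicle, 2.12, 2.82, 2.90 and 2.03 after paclitaxel, and 7.56, 6.26, 5.20 and 8.60 after oxaliplatin. It was higher in each oxaliplatin library than in any other, with a mean of 6.90 ± 1.49 against 2.63 ± 0.261 CPM (log2 fold change 1.39 ± 0.19, adjusted p = 0.00333, edgeR). Dnmt1 (84350), the methyltransferase that Uhrf1 brings to new DNA, had 29.1, 23.5, 27.1 and 23.8 CPM after vehicle, 30.7, 27.8, 30.3 and 25.1 after paclitaxel, and 32.1, 30.5, 31.1 and 35.8 after oxaliplatin. The vehicle and oxaliplatin libraries did not overlap, the difference was 0.32 ± 0.10 (adjusted p = 0.112), and its reads were shared in all 12 libraries. Chaf1a and Chaf1b, subunits of the chaperone that places histones on new DNA, had 0.14 ± 0.10 and 0.47 ± 0.19 (adjusted p = 0.54 and 0.222, the latter with shared reads).

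None of the 4 G1/S genes was called, and they behaved unlike each other. E2f8 (308607), a repressor of the E2F family made during S phase, was the scarcest member per length, at 0.135 ± 0.0733 FPKM after vehicle. It had 1.27, 0.351, 0.629 and 0.574 CPM after vehicle, 0.423, 0.411, 0.178 and 0.581 after paclitaxel, and 2.08, 1.61, 1.47 and 2.42 after oxaliplatin. The oxaliplatin libraries were above all others, and the log2 fold change of 1.41 ± 0.37 was the largest of the members but missed the threshold (adjusted p = 0.0715, edgeR). E2f1, an activator of S-phase genes, had 17.9 to 22.0 CPM after vehicle and 19.6 to 22.3 after oxaliplatin (0.01 ± 0.09, interval -0.19 to 0.22). Cyclin E1 and E2 (Ccne1 and Ccne2) had 0.11 ± 0.19 and 0.05 ± 0.19, and Ccne1 was split after oxaliplatin, at 11.7 and 10.5 CPM in oxaliplatin 1 and 4 and 6.15 and 6.78 in oxaliplatin 2 and 3. Over the whole group, 16 of the 37 intervals for oxaliplatin against vehicle included 0, and 11 lay wholly between -0.5 and 0.5, among them those of Pcna, Rrm1, E2f1, Mcm4 and Orc6.

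**Figure D3:**
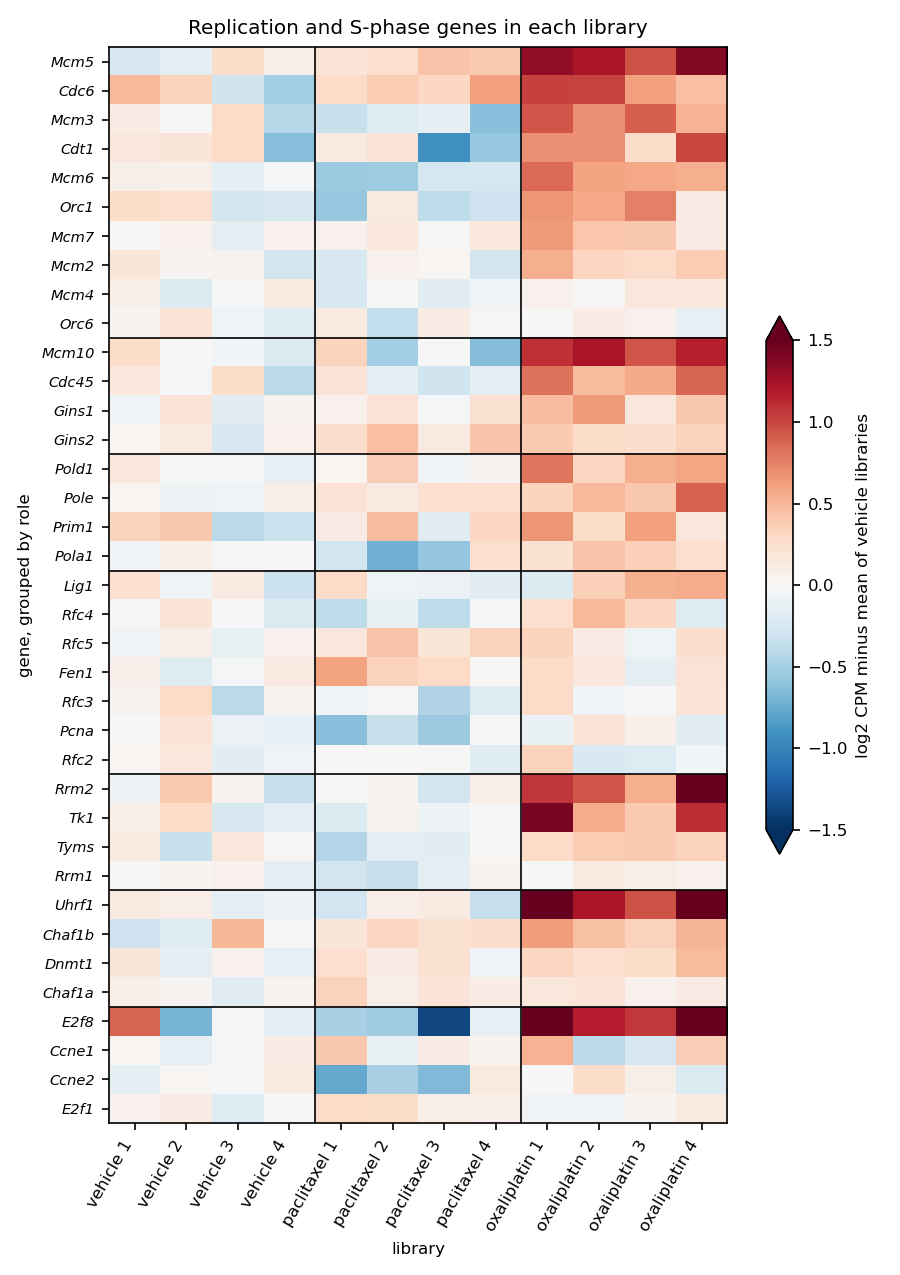
Log2 CPM minus the mean of the vehicle libraries (colour) for each of the 37 genes (vertical, grouped by role) in each of the 12 libraries (horizontal). Between 24 and 29 of the genes are above all vehicle libraries in each oxaliplatin library, and the share over all genes was not counted. The clamp, loader and lagging-strand genes range from -0.23 to 0.56 in the oxaliplatin libraries, and Pcna reaches -0.63 in paclitaxel 1.

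The 4 oxaliplatin libraries were alike in this group of genes. Oxaliplatin 1, 2, 3 and 4 had 29, 28, 24 and 27 of the 37 members above all vehicle libraries and 0, 2, 2 and 2 below them. In paclitaxel 1 to 4 the counts were 10, 10, 8 and 10 above and 10, 7, 9 and 7 below. The share of all genes outside the vehicle range was not counted for single libraries, so these counts have no background beside them. The mean log2 CPM of the members, relative to the vehicle mean, was 0.54, 0.43, 0.36 and 0.49 in oxaliplatin 1 to 4, between -0.11 and 0.10 in the vehicle libraries and between -0.12 and 0.00 in those of paclitaxel. By role, this score for the clamp, loader and lagging-strand genes was 0.08 to 0.17 after oxaliplatin and -0.09 to 0.10 after vehicle, so the ranges met. For licensing it was 0.46 to 0.68 against -0.20 to 0.12, and for origin firing 0.48 to 0.69 against -0.13 to 0.10. Deoxynucleotide supply gave 0.36 to 0.77 against -0.15 to 0.10, and chromatin copying 0.41 to 0.70 against -0.04 to 0.06.

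The difference after oxaliplatin went with the level of a gene, so that scarce members differed most. Levels were taken from the paclitaxel libraries, which have no part in the fold change for oxaliplatin against vehicle. The 18 members under the median of 2.82 FPKM had a median log2 fold change of 0.66 and 7 calls, and the 19 at or above it a median of 0.14 and 1 call, that of Tk1. Across the 37 genes, Pearson's r between log2 FPKM and log2 fold change was -0.72 and Spearman's rho -0.73, given as a description because genes share libraries and are not replicates. Over 15804 tested genes rho was -0.25, with median log2 fold changes of 0.10 under and -0.01 at or above the same level. Within a level the members still spread: Mcm5 and Ccne2, at 1.54 and 1.44 FPKM after paclitaxel, had log2 fold changes of 1.24 and 0.05.

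**Figure D4:**
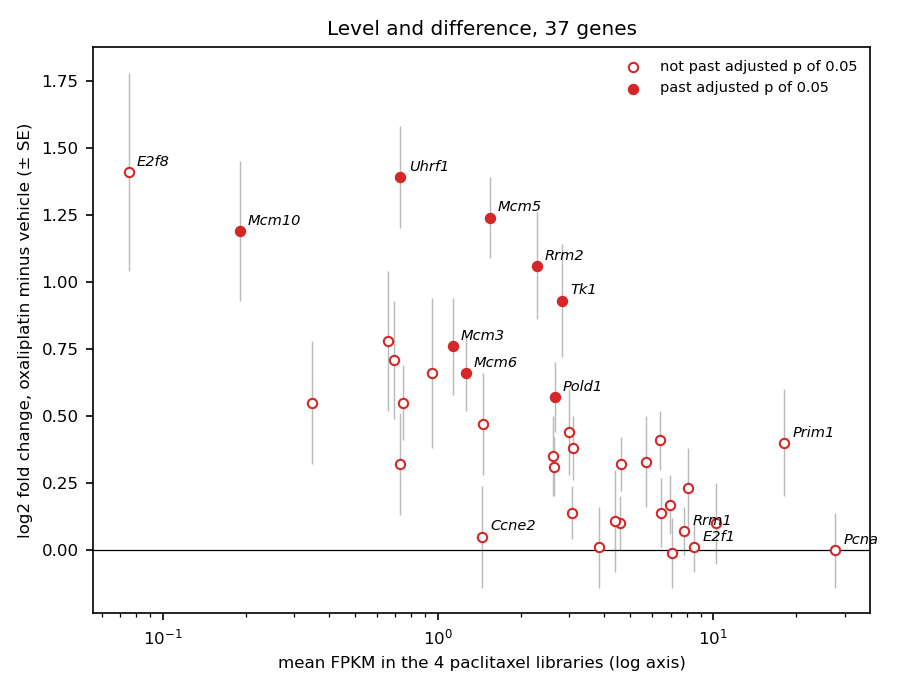
Log2 fold change of oxaliplatin against vehicle (vertical axis, ± SE) against mean FPKM in the 4 paclitaxel libraries (horizontal log axis) for the 37 genes, with filled points called. Called genes lie at the lower levels, with Tk1 at 2.82 FPKM the most abundant of them, and Pcna at the far right lies at 0.00.

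Paclitaxel left the group without a common direction. Of the 37 members 0 were called higher and 0 lower, while 0.0822% of all genes tested were called higher and 0.038% lower. DESeq2 also called 0 members, and 1.44% of all genes. An unadjusted p under 0.05 in edgeR was reached by 5 of the 37 members, and by 2697 of the 15809 genes tested. There were 15 values above 0 and 22 below, with a median of -0.05 and a range of -0.81 to 0.37. Groups did not overlap for 3 higher members, Rfc5, Chaf1a and Pole, where 3.88% of all genes did so, and for 1 lower member, Mcm6, where 3.08% did. Mcm6 had the smallest p (-0.41 ± 0.14, adjusted p = 0.223, edgeR), with Gins2 (0.32 ± 0.11), Pcna (-0.36 ± 0.14), Rfc5 (0.28 ± 0.11) and Fen1 (0.32 ± 0.13) next (adjusted p of 0.23 to 0.259). Intervals included 0 for the other 32. Without paclitaxel 4, the highest of the paclitaxel libraries for Pola1, Pcna and Ccne2, these 3 members were called lower, and 1631 genes in all were called instead of 19.

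Set directly against paclitaxel, oxaliplatin gave 13 members called higher and 0 lower, where 6.60% of all genes tested were higher and 4.71% lower. The 13 held all 8 of the calls against vehicle. Cell type markers were called in the same comparison: 9 of 10 erythroid markers were higher and 1 lower (median 2.32), and 6 of 8 B lymphocyte, 5 of 6 adipocyte, 5 of 7 fibroblast, 4 of 7 endothelial and 3 of 9 macrophage markers were higher. Of 8 neuron markers 4 were lower (median -0.38). Fewer calls came from other lists, with 2 of 6 pericyte, 1 of 7 satellite glia and 1 of 8 Schwann cell markers higher. Of 4 tested markers of hematopoietic stem and progenitor cells 1 was higher and 1 lower. Neutrophil markers had 0 of 9 called (median 1), and T and NK cell markers 0 of 3 tested. The part of these cell types in the difference of the replication genes was not tested. The paclitaxel and vehicle comparisons share the oxaliplatin libraries, so they are not separate evidence. Against paclitaxel and against vehicle in turn, the log2 fold changes were 1.06 and 0.66 for Mcm6, 1.48 and 1.39 for Uhrf1, 0.93 and 1.24 for Mcm5, 1.10 and 0.76 for Mcm3, and 1.12 and 1.06 for Rrm2. Adjusted p-values of these 5 against paclitaxel were 0.00136, 0.0014, 0.00509, 0.00518 and 0.00717 (edgeR). Mcm10 (1.38 ± 0.26), Tk1 (1.00 ± 0.21) and Pold1 (0.47 ± 0.13) were the other 3, with adjusted p-values of 0.00868, 0.0117 and 0.034.

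Called against paclitaxel but not against vehicle were E2f8 (2.23 ± 0.40, adjusted p = 0.00653), Mcm2 (0.48 ± 0.12, 0.0266), Cdc45 (0.81 ± 0.22, 0.0311), Orc1 (0.84 ± 0.23, 0.0347) and Tyms (0.53 ± 0.15, 0.0384, all edgeR). Their means after paclitaxel were lower than after vehicle, at 0.398 and 0.706 CPM for E2f8 and 1.76 and 2.15 for Orc1, without a call between those groups. Over the members 31 values were above 0 and 6 below, with a median of 0.36, and 15 were free of overlap with oxaliplatin higher, against 9.17% of all genes. The count of calls was 8 without paclitaxel 3, oxaliplatin 1 or oxaliplatin 3, 9 without paclitaxel 1, and 18 without paclitaxel 4. Over all genes 3.77%, 7.73%, 3.59%, 5.07% and 21.7% were called in these refits, in that order, and 11.3% with all libraries. Mcm5, Mcm6, Uhrf1 and Rrm2 stayed called against paclitaxel under each of the 20 alternatives.

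Other genes of the pathway, 95 from lists of replication and G1/S control with 93 tested, were examined in the same fit. After oxaliplatin 6 were called higher and 0 lower, with a median of 0.11, where 1.05% of all genes tested were higher and 0.708% lower. Cdkn1a (114851), the kinase inhibitor p21 that holds cells before S phase, was at 14.7, 11.3, 10.1 and 9.30 CPM after vehicle, 26.1, 28.9, 17.2 and 20.6 after paclitaxel, and 64.3, 60, 41.3 and 69 after oxaliplatin. The 3 groups did not overlap. It rose after oxaliplatin by 2.37 ± 0.20 (adjusted p = 0.000229, edgeR), and after paclitaxel it had 1.03 ± 0.20, which missed the threshold (adjusted p = 0.0848, edgeR). That call depended on the fit: DESeq2 made it (adjusted p = 0.000205), and so did edgeR without paclitaxel 4, without oxaliplatin 3 or with the replicate number as a block, with a range of adjusted p up to 0.286 over the alternatives. The inhibitor of S phase entry and 8 genes of S phase were higher in the same 4 libraries.

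Dtl (1.41 ± 0.27, adjusted p = 0.0232), whose product marks Cdt1 for destruction, and Ccna2 (0.85 ± 0.17, 0.0282), the cyclin of S phase and G2, rose with them. Of the fork checkpoint list 2 of 11 rose, Clspn (1.23 ± 0.28, 0.0408) and Rad9a (0.43 ± 0.10, 0.0448), and of 18 other origin and helicase genes 1 rose, the helicase gene Recql4 (0.89 ± 0.20, 0.0411, all edgeR). The lists of fork and strand synthesis (17 tested), nucleotide supply (11) and histone supply (10) had 0 called. Their members of smallest p were Pold2 (0.38 ± 0.13, adjusted p = 0.143), Shmt1 (0.60 ± 0.25, 0.236) and the histone chaperone gene Asf1b (1.24 ± 0.35, 0.0904). Cdkn1a was called in every refit, but only it remained without vehicle 1, 2 or 4 or oxaliplatin 1, and 2 remained without oxaliplatin 3 or 4. There were 3 without vehicle 3, paclitaxel 2 or oxaliplatin 2, and 1, Cdkn1a, with oxaliplatin 2 and 4 alone. Over all genes 0.307% to 1.52% were called with any of these libraries left out. The share was 0.242% with oxaliplatin 2 and 4 alone and 1.76% with all libraries. Reads of Dtl, Ccna2, Clspn and Rad9a were shared in 10 to 12 libraries. Against paclitaxel 18 of the 93 were called higher and 0 lower (median 0.19), where 6.60% of all genes tested were higher and 4.71% lower. After paclitaxel against vehicle 0 of the 93 were called (median -0.07). Without paclitaxel 4 that last count became 2 higher and 5 lower, in all Tk2, Atad2, Dek, Ccnd1, E2f5, Rb1 and Cdkn1a. In that refit 10.2% of all genes were called. The 18 against paclitaxel became 9 without paclitaxel 1 or 2, 11 without paclitaxel 3 or oxaliplatin 3, and 3 with oxaliplatin 2 and 4 alone. Over all genes 11.3% were called with all libraries, 3.59% to 5.07% without any of those 4 libraries and 0.578% with oxaliplatin 2 and 4 alone. The smallest p-values were those of Atad2 (0.92 ± 0.13, adjusted p = 0.00252), Cdkn1a (1.34 ± 0.19, 0.00257), Ccna2 (1.13 ± 0.17, 0.0037), Dtl (1.58 ± 0.28, 0.00627) and Cdk2 (0.94 ± 0.17, 0.0066).

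Markers of other cell types also differed between the groups, not all in the same direction. Over 10 erythroid markers the mean log2 CPM relative to vehicle was 1.58, 0.56, 1.54 and 0.41 in oxaliplatin 1 to 4, -0.12 to 0.17 in the vehicle libraries and -1.60 to -0.33 after paclitaxel, and 9 of the 10 were above 0 for oxaliplatin against vehicle (median 1.33, 0 called higher and 1 lower). Their summed level was 1990 to 3590 CPM after vehicle, 988 to 2470 after paclitaxel and 3870 to 13000 after oxaliplatin. Of 8 tested markers of B lymphocytes and their precursors 7 were above 0 (median 1.55, 0 called), with scores of 1.96, -0.08, 1.98 and 0.39 in oxaliplatin 1 to 4. Their summed level was 79.5 to 86.2 CPM after vehicle, 66.8 to 86.5 after paclitaxel and 75.4 to 142 after oxaliplatin, and the precursor marker Vpreb1 was at 0 in 5 libraries. Among the oxaliplatin libraries, the replication score was 0.43 and 0.49 in oxaliplatin 2 and 4, where these markers were lower, and 0.54 and 0.36 in oxaliplatin 1 and 3, where they were higher. The erythroid scores of oxaliplatin 2 and 4 were still above all vehicle libraries, with summed levels of 5580 and 3870 CPM, and so was the B lymphocyte score of oxaliplatin 4.

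With oxaliplatin 2 and 4 alone, an alternative chosen after those scores were seen, 3 members were called against vehicle, Mcm5, Uhrf1 and Rrm2, and 4 against paclitaxel. Over all genes 0.242% and 0.578% were called in these comparisons. Both libraries still had erythroid and adipocyte scores above all vehicle libraries, so the refit does not set those markers aside. Adipocyte markers were higher as well (scores of 0.83 to 2.15 after oxaliplatin and -0.25 to 0.46 after vehicle, 3 of 6 called, Lep at 0 in 4 libraries), as were the scores of 7 endothelial markers, with 0 called (0.32 to 0.51 against -0.28 to 0.33). Summed levels were 38.4 to 89.2 against 26.6 to 39.9 CPM for adipocyte markers and 215 to 257 against 140 to 219 CPM for endothelial ones. Fibroblast markers scored 0.18 to 0.50 after oxaliplatin, -0.26 to 0.22 after vehicle and -0.63 to -0.13 after paclitaxel. Neuron markers scored -0.28 to -0.01 after oxaliplatin, -0.09 to 0.09 after vehicle and 0.06 to 0.39 after paclitaxel. After paclitaxel, macrophage markers scored -1.46 to -0.64 and neutrophil markers -2.29 to -1.10, with vehicle between -0.41 and 0.28 and between -0.46 and 0.49. Their summed levels were 89.6 to 164 against 179 to 326 CPM and 13.5 to 42.7 against 50.4 to 100 CPM, with the granulocyte marker Elane at 0 in 1 library. After oxaliplatin the macrophage and neutrophil lists scored -0.51 to -0.01 and -2.10 to 0.37. Against vehicle 7 of 9 macrophage and 9 of 9 neutrophil markers were below 0 (medians -0.42 and -0.44, 0 called). Satellite glia and Schwann cells, the resident glia, scored -0.39 to 0.07 and -0.08 to 0.56 after oxaliplatin and overlapped vehicle, at -0.18 to 0.18 and -0.39 to 0.32. The part of these cell types in the differences of the replication genes was not tested.

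**Figure D5:**
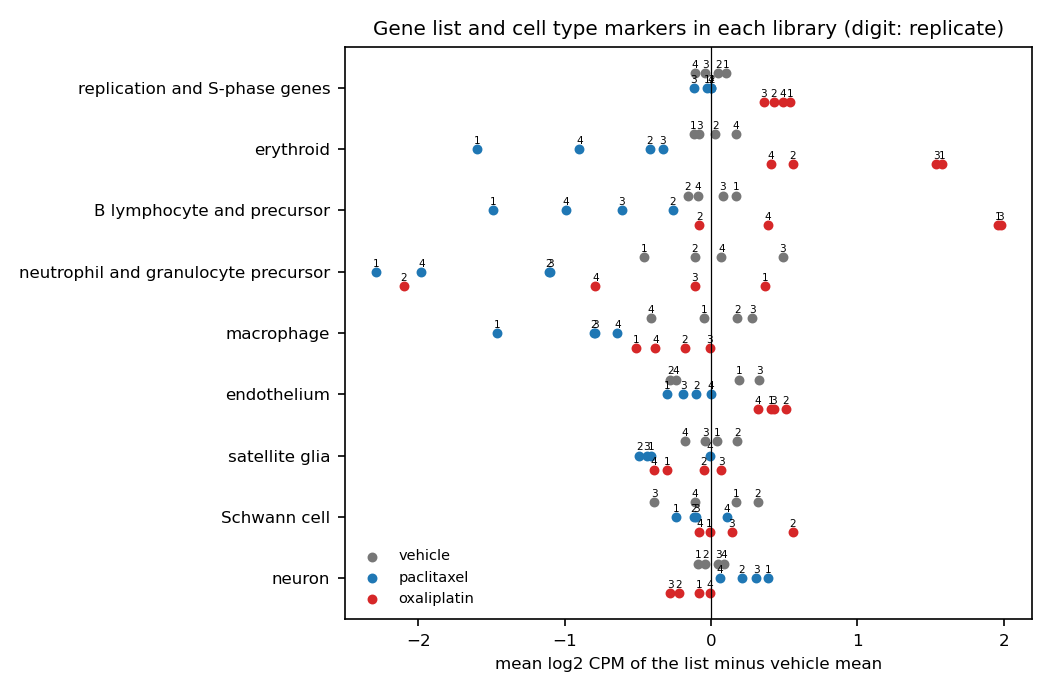
Mean log2 CPM of each list minus its vehicle mean (horizontal axis) in each library (points, each marked with its replicate number), for the 37 genes and for 8 cell type lists (vertical axis). Oxaliplatin libraries lie between 0.36 and 0.54 for the replication genes, while oxaliplatin 1 and 3 stand apart from 2 and 4 in the erythroid and B lymphocyte lists.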

How the data were processed

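Total RNA of rat dorsal root ganglion was sequenced in 12 libraries, 4 per group, grouped and numbered by their titles. The authors' deposited tables hold an estimated count of fragments for each gene, not scaled for depth, per the file headers. They also hold deposited FPKM values, scaled by transcript length and depth. Genes under an FPKM of 0.01 are not listed and were taken as 0. CASAVA 1.4 and Bowtie2 are the tools given in the submitters' processing notes. The quantification tool, strandedness and genome build are not given in the sources used here.

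Rounded counts were modelled in edgeR 4.0.16 under R 4.3.3 (default expression filter, TMM, robust quasi-likelihood fit of 3 group means, 9 residual degrees of freedom), leaving 15809 genes and setting aside 4343. Tests were two-sided with Benjamini-Hochberg adjustment at 0.05. The common biological coefficient of variation was 0.159, and no 2 libraries of a group agreed within sampling noise (mean chi-square per gene 8.07 to 44.9). Intervals are at 95%. A gene is uncertain if its estimated counts were fractional in over 6 libraries, which holds for 8 members, 0 of them called against vehicle. Scripts were tested on simulated counts.

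The members and lists were chosen with earlier results of these data known, so no test over a list is given. Values per library are given for the 14 members with the smallest p for oxaliplatin against vehicle, the smallest of each of 7 roles and any called elsewhere, and for a few others picked after their values were seen (Pcna and Rrm1). Of each other list, up to 4 called genes are named, otherwise the gene of smallest p. Promoters are RefSeq's for GRCr8, matched by gene. Alternatives were DESeq2 1.42.0, RLE factors, no filter, limma 3.58.1 on log2(FPKM + 1) and log2(FPKM + 0.1), the replicate number as a block, the groups compared alone, each library left out, and oxaliplatin 1 and 3 left out together.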

Additional observations from a re-analysis of the deposited data

Results flagged for a closer look

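In 3 of 111 sets of 4 libraries, 1 library lay far from the other 3, by a gap past Dixon's critical value at the 95% level. Chance gives such a gap in about 1 of 20 sets. Cdt1 was at 1.61 CPM in vehicle 4 and at 2.89, 2.92 and 3.15 in the other vehicle libraries. Mcm6 was at 9.18 CPM in oxaliplatin 1 and at 7.70, 7.57 and 7.42 in the others. Rfc2 was at 10.3 CPM in paclitaxel 4 and at 11.7, 11.6 and 11.7 in the others.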

How the results depend on the processing

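Among the genes followed through the alternatives, which were the 17 members named by rule against vehicle, the called genes in both oxaliplatin comparisons and Cdkn1a in all 3, none changed direction. The other members were not followed singly. Mcm5 and Uhrf1 stayed called against vehicle and against paclitaxel under all 20 alternatives, with adjusted p-values up to 0.0128 and 0.0219 against vehicle. Members called higher against vehicle were 8, and 5 with the 2 groups alone, 3 with oxaliplatin 2 and 4 alone and 2 to 8 with a library left out. Against paclitaxel they were 13, and 4 with oxaliplatin 2 and 4 alone and 8 to 18 with a library left out. Members called lower after paclitaxel were 0 to 3 with a library left out. The median of members against vehicle was 0.29 by limma on log2(FPKM + 1), a scale that shrinks low values, and that against paclitaxel was 0.34 to 0.43 with a library left out. Settings that leave out libraries test fewer samples; the cause of the other changes was not tested.

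All genes called for oxaliplatin against vehicle, paclitaxel against vehicle and oxaliplatin against paclitaxel were 278, 19 and 1788. DESeq2 called 904, 238 and 2782. The groups compared alone gave 161 and 1016 for the oxaliplatin comparisons, and oxaliplatin 2 and 4 alone gave 39 and 93. Leaving out a library gave 49 to 357, 10 to 1631 and 571 to 3463.

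Same-numbered libraries did not deviate together (correlations of -0.23 to 0.16, 1 of 12 over 0.1). The labels do not say whether the numbers pair libraries, and low correlations over genes do not exclude it. With the replicate number as a block, 3 members were called against vehicle and 9 against paclitaxel, with 72 and 986 genes in all, and 0 members after paclitaxel. Scarce members limit precision: E2f8 and Mcm10 rest on means of 6.8 to 36.0 estimated counts.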
